A study of Mus musculus with 6 samples.

Results

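Steroid hormones are made from cholesterol in mitochondria. Cyp11a1 cuts the side chain of cholesterol to give pregnenolone, the parent of the other steroid hormones, with electrons passed to it by the reductase Fdxr and the carrier Fdx1. Star, Stard3 and Tspo act before that step, in the delivery of cholesterol to the mitochondrion, and Akr1c18 acts after it, reducing progesterone to a less active hydroxylated product. The pathway is best known from the adrenal gland and the gonads. Here these 7 genes, listed by their roles in pregnenolone synthesis, electron transfer and progesterone conversion, were taken from a table of 41388 genes and compared between 3 WT and 3 Irf1-/- cultures of mouse Th9 cells, the IL-9-producing helper T cells. All 7 were in the table and all 7 passed the filter for testing, a mean normalized count of at least 10, as did 11379 genes in all, and the 7 also exceeded it in WT cells alone. The list was selected on measured values, the normalized counts of Akr1c18 and Cyp11a1 in this same contrast, so the values of the 7 genes are given as a description, with no p-values.

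Both groups came from spleen and lymph nodes of C57BL/6 mice between 8 and 12 weeks old. CD4+ T cells were purified by magnetic negative selection, and the study's methods call the cells used for RNA-Seq naive, without saying whether the further sort for CD44- CD62L+ cells, made in some of its experiments, was applied here. The cells were activated through CD3 and CD28, and kept for 2 days with IL-2, IL-4, TGF-β and an antibody to IFN-γ, together with 5 ng per ml of recombinant IFN-γ. Both groups therefore shared the IFN-γ treatment and differed in genotype, WT or germline Irf1-/-. Irf1, interferon regulatory factor 1, is a transcription factor induced by IFN-γ, and the comparison asked what it contributes to the response of Th9 cells to that cytokine. There were no cultures without IFN-γ in this table. RNA came from the whole culture, in which fewer cells of a kind and less RNA per cell cannot be told apart.

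The libraries held between 5639788 and 13348230 reads on genes, so that 3 reads were worth a normalized count of 1.84 to 4.16. Normalized Irf1 counts were 2660 to 2968 in WT and 1476 to 1780 in Irf1-/- libraries, a fall that left many reads on the gene (log2 fold change -0.78, limma adjusted p = 7.32e-05), and counts per gene do not show which exons they lie on. Replicate 3 of each genotype stood apart from replicates 1 and 2 on a second principal component with 18% of the variance. Replicates 1 and 2 of a genotype lay close to sampling noise, with a chi-square per degree of freedom of 1.28 in WT and 1.79 in Irf1-/- cells, against 5.97 to 7.30 for pairs with replicate 3. WT replicates 1 and 2 held Y-linked transcripts, with summed counts of 2301 and 2306, while the other 4 libraries held 0 to 11.1. Xist, expressed from the inactive X chromosome of female cells, was at 2.50 and 6.01 in those WT libraries and between 16973 and 19403 in the other 4. The methods describe the mice as matched for sex, but by these transcripts 2 of 3 WT libraries and none of the Irf1-/- libraries came from male cells, so that sex and genotype are partly mixed and WT replicate 3 is the single WT library of the same kind as the Irf1-/- libraries.

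Cyp11a1, the side-chain cleavage enzyme, is encoded on the + strand of chromosome 9 (58006411 to 58027023 in GRCm38, ENSMUSG00000032323). In replicates 1, 2 and 3 its normalized counts were 83.6, 83 and 105.7 for WT and 361.8, 352.3 and 379.6 for Irf1-/- cells. The Irf1-/- libraries were all high and lay close together, and the lowest of them was 3.33 times the highest WT library. The WT mean was 90.8 ± 13 (SD, n = 3) and the Irf1-/- mean 365 ± 13.9 (SD, n = 3), a ratio of 4.02. On the log2 scale, after adding 1 to each normalized count, the difference was 2.00 with a standard error of 0.115. This was the 61st highest fold change among the genes tested. The level rested on 67, 69 and 172 reads in WT and 303, 254 and 594 reads in Irf1-/- libraries. Without the libraries that held Y-linked transcripts the log2 difference was 1.78.

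Akr1c18, the progesterone-reducing enzyme, is encoded on the - strand of chromosome 13 (4132615 to 4150654, ENSMUSG00000021214). In the same order its normalized counts were 16.2, 16.8 and 28.9 for WT and 308, 350.9 and 658.9 for Irf1-/- cells. The groups were far apart, with the lowest Irf1-/- library at 10.7 times the highest WT library, and in both genotypes replicate 3 was the highest library. The WT mean was 20.6 ± 7.14 (SD, n = 3) and the Irf1-/- mean 439 ± 191 (SD, n = 3), a ratio of 21.3. The log2 difference of 4.31, with a standard error of 0.286, was the 2nd highest among the genes tested. WT cells gave only 13, 14 and 47 reads for this gene, against 258, 253 and 1031 in Irf1-/- cells. Taken between libraries of the same replicate number, which were not treated as pairs, the log2 ratio was 4.25, 4.38 and 4.51. Replicate 3 was thus high in both genotypes, with a ratio near the rest. The corresponding ratios for Cyp11a1 were 2.11, 2.09 and 1.84.

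The genes that deliver cholesterol to the mitochondrion differed less. Star, the acute regulatory protein of steroid-making cells (ENSMUSG00000031574, chromosome 8, 25806555 to 25815982, + strand), was low in every library. It had normalized counts of 39.9, 40.9 and 40.0 in WT and 35.8, 29.1 and 39.0 in Irf1-/- libraries. All 3 Irf1-/- values were below the WT values, by 1 normalized count or less in the nearest pair of libraries, and the log2 difference was -0.22 with a standard error of 0.192, or -0.10 without Irf1-/- replicate 2. Stard3, which carries a related cholesterol-binding domain and sits on endosomes (ENSMUSG00000018167, chromosome 11, 98358368 to 98381112, + strand), had normalized counts of 282, 310.2 and 253.9 in WT and 320.0, 309.3 and 272.9 in Irf1-/- libraries. These groups overlapped, and the log2 difference was 0.09 with a standard error of 0.1, or between 0.020 without WT replicate 3 and 0.16 without WT replicate 2. It was 0.047 without Irf1-/- replicate 1 and 0.16 without Irf1-/- replicate 3. Tspo, a protein of the outer mitochondrial membrane (ENSMUSG00000041736, chromosome 15, 83563592 to 83574203, + strand), had normalized counts of 218.4, 189.9 and 209.0 in WT and 299.7, 352.3 and 308.0 in Irf1-/- libraries. The groups did not overlap and the mean was 205.8 ± 14.5 (SD, n = 3) in WT against 320.0 ± 28.3 (SD, n = 3) in Irf1-/- cells. Its log2 difference of 0.63, standard error 0.097, kept between 0.56 and 0.68 over 21 other ways of processing the data.

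Both electron carriers had a higher mean in Irf1-/- cells, Fdx1 by more than Fdxr. Fdx1, the ferredoxin that hands electrons to Cyp11a1 (ENSMUSG00000032051, chromosome 9, 51943306 to 51963556, - strand), had normalized counts of 99.8, 102.2 and 57.8 in WT and 150.4, 148.4 and 129.1 in Irf1-/- libraries. WT replicate 3 was the lowest library, and the log2 difference of 0.76, standard error 0.201, fell to 0.49 without it. In the libraries without Y-linked transcripts, which include that WT library alone, it was 1.29. Fdxr, the reductase that supplies Fdx1 (ENSMUSG00000018861, chromosome 11, 115268024 to 115277050, - strand), had normalized counts of 401.8, 381.1 and 400.8 in WT and 505.0, 511.7 and 413.5 in Irf1-/- libraries. Irf1-/- replicate 3 lay just above the WT libraries and the other 2 well above them. The log2 difference was 0.27 with a standard error of 0.09, and within replicate 3 alone it was 0.045.

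Of the 7 genes, 6 did not overlap between the genotypes, 5 of them higher in Irf1-/- cells and Star lower, beside shares of 40.5% of all genes tested without overlap in either direction, 19.7% higher and 20.9% lower. At an adjusted p below 0.05 limma called 4 of the 7 higher, against 11.4% of all genes tested, and 0 lower, against 12.4%. A call with a log2 fold change above 2 was made for 0.501% of all genes tested, and one above 1 for 2.46%. Nothing is read from these counts, since the list was made with this contrast known. The median log2 difference was 0.63 over the 7 genes and -0.0037 over all genes tested.

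**Figure D1:**
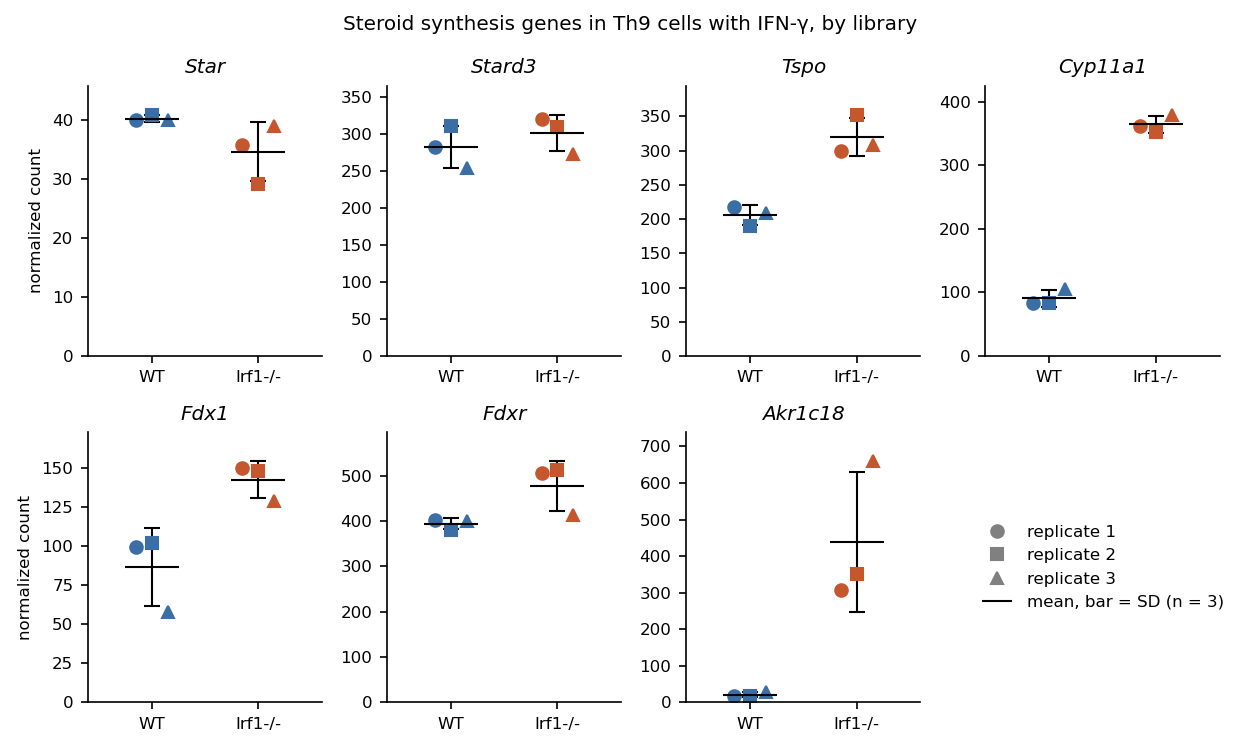
Normalized count (linear axes from 0) of each steroid synthesis gene in the 3 WT and 3 Irf1-/- libraries, with the mean and SD of each genotype. Cyp11a1 and Akr1c18 are far higher in all Irf1-/- libraries, Tspo, Fdx1 and Fdxr lie higher by less, and Star and Stard3 lie at similar levels in both genotypes.

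The order of the genes by level was read per kilobase of exon, since a longer transcript gives more reads. In WT cells the normalized count per kilobase was 196 for Tspo, 141 for Fdxr, 79.3 for Stard3, 27.9 for Fdx1, 18.9 for Cyp11a1, 17.1 for Akr1c18 and 9.79 for Star. Fdx1, Cyp11a1 and Akr1c18 could not be ordered there, as their libraries ranged over 18.6 to 32.9, 17.3 to 22 and 13.4 to 23.9 per kilobase. In Irf1-/- cells Akr1c18 had the highest mean at 364 per kilobase, followed by Tspo at 304, Fdxr at 170, Stard3 at 84.5, Cyp11a1 at 75.9, Fdx1 at 46.0 and Star at 8.42. The libraries of Akr1c18, from 255 to 546, overlapped those of Tspo, from 285 to 335, and those of Stard3 overlapped those of Cyp11a1.

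The annotated exons of Cyp11a1 add up to 4.80 kilobases, while its longest coding transcript has 2.12 kilobases. Taken per kilobase of the longest coding transcript, Cyp11a1 stood at 42.8 in WT and 172 in Irf1-/- cells, which placed it above Stard3 at 145 in the latter, and Tspo at 382 stood above Akr1c18 at 366. On either scale Akr1c18 was among the lowest of the 7 genes in WT cells and among the highest in Irf1-/- cells, and Star was the lowest gene in both.

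**Figure D2:**
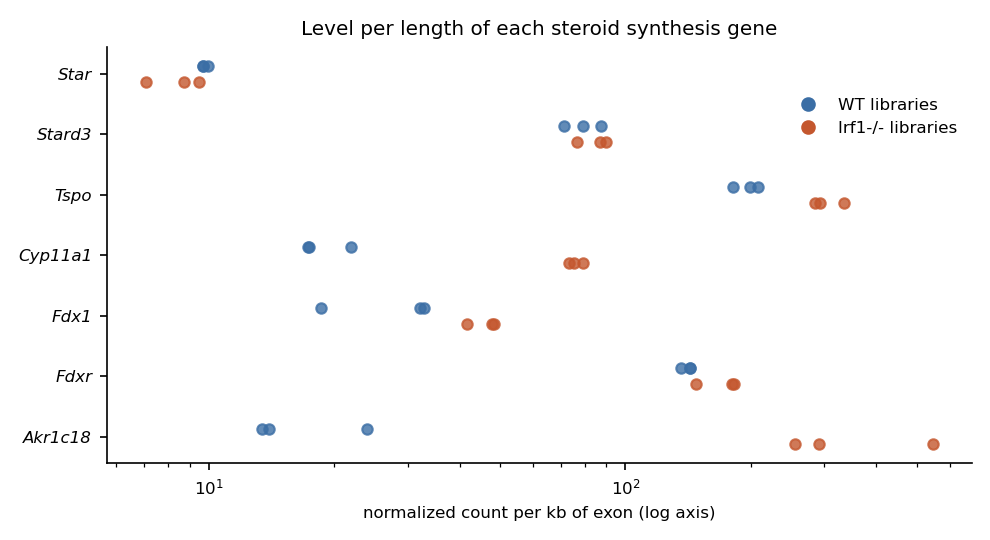
Normalized count per kilobase of exon (log axis) of each steroid synthesis gene, with each point a library and the genotypes in different colours. Akr1c18 moves from the range of Cyp11a1 and Fdx1 in WT libraries to that of Tspo in Irf1-/- libraries, and Star is the lowest in both.

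Several enzymes of the known routes onward from pregnenolone had no reads, while others of wider function were well expressed. Of a list of 39 enzymes that make, convert or conjugate steroids, 37 were in the table, 19 had no read in any library and 12 passed the filter. Hsd3b1 to Hsd3b6, of the family that turns pregnenolone into progesterone in steroid-making organs, had 0 reads in all 6 libraries. A count of 0 allows up to 3 reads, a normalized count between 1.84 and 4.16 depending on the library. Hsd3b7, a relative that acts on bile acid precursors, had normalized counts of 44.9 to 63.7 in WT and 32.0 to 51.3 in Irf1-/- libraries and was not called (log2 fold change -0.34, adjusted p = 0.288). Cyp17a1, which opens the way to androgens and to cortisol, had 1 read in all, in Irf1-/- replicate 3. Cyp19a1, the aromatase that makes estrogens, had 0 reads, as had Cyp21a1, Cyp11b1 and Cyp11b2 of the corticosteroid branch. Srd5a1, a reductase of progesterone and testosterone, had normalized counts of 18 to 29.9 in WT and 18 to 27.5 in Irf1-/- libraries (log2 fold change -0.19, adjusted p = 0.669). The single called enzyme of this list was Hsd17b12, which also elongates fatty acids and was lower in Irf1-/- cells, at 1240 to 1364 in WT and 1068 to 1079 in Irf1-/- libraries (log2 fold change -0.26, adjusted p = 0.00809, lost under 2 of 20 other ways of processing the data that gave a test). None of the 12 tested enzymes was called higher by limma. Hsd17b4, Hsd17b7, Hsd17b10 and Rdh11, dehydrogenases that also act on fatty acids, cholesterol precursors or retinoids, were well expressed at 336 to 871 in all libraries and were not called.

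Among the proteins that pass electrons to cytochromes, 3 of 6 tested were called higher in Irf1-/- cells and 0 lower. Of all genes tested 11.4% were called higher and 12.4% lower, shares that apply beside this count and those of the lists and windows below. No list was tested as a set. Cyb5r1, a reductase of cytochrome b5, had normalized counts of 381.9, 372.7 and 438.3 in WT and 909.8, 907 and 988 in Irf1-/- libraries. On the log2 scale it rose by 1.23 (standard error 0.0778), with an adjusted p of 4.1e-06 from limma. Cyb5a, the microsomal cytochrome b5, rose by 0.76 on the log2 scale (adjusted p = 0.000622), and Cyb5r3, another reductase of cytochrome b5, by 0.25 (adjusted p = 0.0273), a call that was lost under 9 of 20 other ways of processing the data. Fdx1l, the second mitochondrial ferredoxin and a relative of Fdx1, was not called (log2 fold change 0.03, adjusted p = 0.857). Por, which serves the microsomal cytochromes of the P450 family, had a log2 fold change of 0.14 (adjusted p = 0.158).

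Of the 23 tested genes that bring cholesterol into the cell, move it between membranes or store it, 7 were called higher and 3 lower. Lonp1, a mitochondrial protease, had normalized counts of 2330 to 2714 in WT and 3846 to 4390 in Irf1-/- libraries (log2 fold change 0.70, adjusted p = 9.11e-05). Stard5, a cytosolic relative of Star that binds sterols, rose from 129.8, 140.7 and 135.2 in WT to 243.6, 235.8 and 200 in Irf1-/- libraries (log2 fold change 0.74, adjusted p = 0.000951). Soat1, which esterifies cholesterol for storage, rose by 0.39 (adjusted p = 0.00149), Lipe, which releases it from esters, by 0.44 (adjusted p = 0.00474), and Scarb1, a receptor for high-density lipoprotein, by 0.27 (adjusted p = 0.00915). The calls of Lipe and of Scarb1 were each lost under 2 of 20 alternatives. Dbi, a ligand of Tspo, rose by 0.29 (adjusted p = 0.0308) and Soat2 by 0.98 (adjusted p = 0.0364), and these calls were lost under 7 and 12 of 20 alternatives, with a fold change of Soat2 of 0.14 in the libraries without Y-linked transcripts. The lower genes were Npc2, which carries cholesterol out of lysosomes (log2 fold change -0.37, adjusted p = 0.00231), Vps13a, a lipid transfer protein at membrane contacts (-0.51, adjusted p = 0.00128, lost under 1 of 20 alternatives), and the exporter Abcg1 (-0.34, adjusted p = 0.0406, lost under 7 of 20 alternatives). Stard4, Npc1, Vdac1 and Atad3a, which act in the same supply, were not called.

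Of 24 regulators known from steroid-making organs 3 had no read and 8 were too low to test. Nr5a1, the nuclear receptor that drives steroid enzymes in the adrenal gland and gonads, had 0 reads in all libraries, as had Nr0b1 and Nr0b2. Of the 13 tested, 1 was called higher and 4 lower. Nr4a3, a nuclear receptor induced by T cell activation, had normalized counts of 7598 to 8351 in WT and 4206 to 4892 in Irf1-/- libraries (log2 fold change -0.83, adjusted p = 2.65e-05), and its relative Nr4a2 fell by 0.85 on the log2 scale (adjusted p = 0.00486, lost under 1 of 20 alternatives). The cyclic AMP-responsive factor Crem rose by 0.67 (adjusted p = 0.0132, lost under 6 of 20 alternatives, with a fold change of 0.42 in the libraries without Y-linked transcripts). Creb1 fell by 0.27 (adjusted p = 0.027) and Sp1 by 0.28 (adjusted p = 0.0416), calls that were lost under 8 and 9 of 20 alternatives. The fold change of Creb1 was -0.16 in the libraries without Y-linked transcripts.

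Among receptors of steroids, their relatives and their targets, 10 genes were tested, with 3 called higher and 0 lower. Pgr, the nuclear progesterone receptor, had 0 reads in every library. Paqr7, a membrane progestin receptor, and Paqr3, a relative in the same protein family, were called higher, though low in level. Their log2 fold changes were 0.51 (adjusted p = 0.0268) and 1.01 (adjusted p = 0.021), and the calls were lost under 9 of 20 and 6 of 19 alternatives. Nr3c1, the glucocorticoid receptor, had normalized counts of 483.3 to 613.5 in WT and 356.4 to 521.5 in Irf1-/- libraries and was not called (log2 fold change -0.34, adjusted p = 0.102). Tsc22d3, a target of that receptor, rose from 163.5, 137.1 and 251.4 in WT to 347.4, 303.7 and 438.4 in Irf1-/- libraries (log2 fold change 1.01, adjusted p = 0.00529). This call was lost under 2 of 20 alternatives, and the fold change was 0.51 in the libraries without Y-linked transcripts.

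Over these 5 lists, 64 of 116 genes were tested, 14 were called higher and 8 lower, together 34.4% against 23.7% of all genes tested, and the median log2 fold change was 0.0072. Without WT replicate 1 or WT replicate 2 the number called higher was 9, and without WT replicate 2 or Irf1-/- replicate 2 the number called lower was 5. In the 4 libraries without Y-linked transcripts the numbers were 5 and 3, and with replicates 1 and 2 of a genotype averaged as 1 sample, an alternative chosen after seeing the data, they were 5 and 4.

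**Figure D3:**
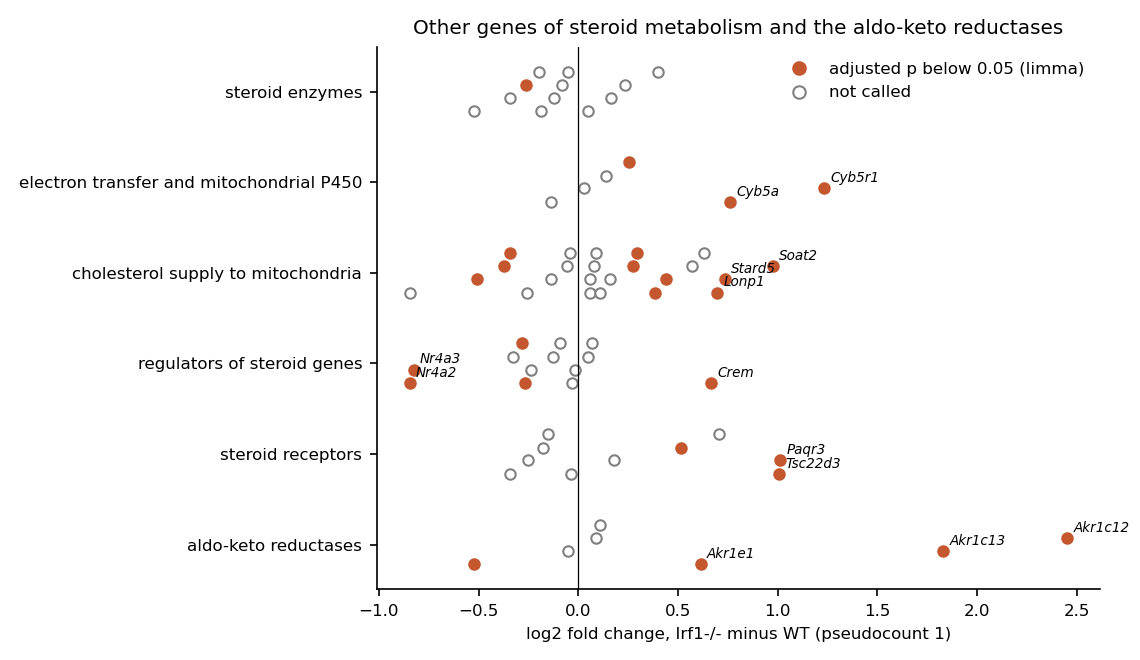
Log2 fold change (Irf1-/- minus WT) of the tested genes of 5 steroid lists and of the other aldo-keto reductases, with filled points called by limma at an adjusted p below 0.05 and genes named where called with a change of 0.6 or more. The steroid enzymes lie between -0.52 and 0.40, and Akr1c12 and Akr1c13 have the highest values shown.

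Akr1c18 belongs to a cluster of aldo-keto reductase genes on chromosome 13, and the sequences are shown to set it beside the neighbours that moved with it. Of 15 listed aldo-keto reductases 7 were tested, with 3 called higher and 1 lower. Akr1c12, a dehydrogenase of the same subfamily whose start lies 129 kilobases from that of Akr1c18, had normalized counts of 12.5, 21.6 and 21.5 in WT and 91.9, 84.6 and 140.0 in Irf1-/- libraries. Its groups did not overlap and it rose by 2.45 on the log2 scale (standard error 0.263, limma adjusted p = 0.000144). Akr1c13, with its start 40.5 kilobases away, had normalized counts of 47.4, 55.3 and 70.7 in WT and 143.3, 184.4 and 326.6 in Irf1-/- libraries. It too did not overlap and rose by 1.83 (standard error 0.262, adjusted p = 0.000842). As for Akr1c18, replicate 3 was the highest Irf1-/- library for both. The other called genes of the family were Akr1e1 (0.62, adjusted p = 0.00778, lost under 1 of 20 alternatives) and Akr1b10 (-0.52, adjusted p = 0.0157, lost under 7 of 20 alternatives).

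The remaining Akr1c genes gave hardly any reads. Akr1c6, Akr1c20, Akr1c21 and Akr1cl were at 0 in all libraries. Akr1c14 had 1.20 in WT replicate 2 alone, and Akr1c19 had 0 in WT and 1.39 to 2.56 in Irf1-/- libraries, which is under the value of 3 reads in the first 2 Irf1-/- replicates. Net1, at the edge of the 250-kilobase window around Akr1c18, was lower (log2 fold change -0.34, adjusted p = 0.0133, lost under 5 of 20 alternatives). Of 9 genes in the window 3 were tested, and 2 were called higher, Akr1c12 and Akr1c13.

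Whether reads that match several genes were counted was not stated, so the overlap of transcript sequences was measured in windows of 50 bases. Of 1205 windows in the transcripts of Akr1c18, 7 also occurred in another gene, all of them in Akr1cl, which was at 0. Its value could therefore take few reads from a paralog. Akr1c12 and Akr1c13 shared 28.6% and 24.2% of their windows with each other, and their transcripts were identical at 94.6% of aligned bases, so their separate values are uncertain. The transcript of Akr1c18 was identical to that of Akr1c12 at 72.8% and to that of Akr1c13 at 72.3% of aligned bases.

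The 3 genes also differ in the sequence before their starts. The stretches below are the RefSeq upstream windows on GRCm38.p6, without the bases that GENCODE places in an exon, written 5′ to 3′ on the strand of the gene. Capitals mark the bases at which Akr1c13 and Akr1c12 differ from each other, and Akr1c18 has none marked. The positions are chr13:4150655-4150896 on the - strand for Akr1c18, chr13:4190937-4191149 on the + strand for Akr1c13 and chr13:4279434-4279649 on the - strand for Akr1c12.
Akr1c18: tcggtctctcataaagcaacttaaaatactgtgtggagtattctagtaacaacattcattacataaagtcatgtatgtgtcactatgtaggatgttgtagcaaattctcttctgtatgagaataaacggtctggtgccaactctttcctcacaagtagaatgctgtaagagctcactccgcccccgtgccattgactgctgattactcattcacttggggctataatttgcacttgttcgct
Akr1c13: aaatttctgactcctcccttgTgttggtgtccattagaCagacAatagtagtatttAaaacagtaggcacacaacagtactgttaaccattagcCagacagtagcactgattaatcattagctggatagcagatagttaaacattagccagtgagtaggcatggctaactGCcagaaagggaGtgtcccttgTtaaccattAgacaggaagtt
Akr1c12: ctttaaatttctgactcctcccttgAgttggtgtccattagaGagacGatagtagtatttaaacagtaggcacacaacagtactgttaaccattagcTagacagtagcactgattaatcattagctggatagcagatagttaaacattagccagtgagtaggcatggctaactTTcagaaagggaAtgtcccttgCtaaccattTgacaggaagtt
Akr1c13 and Akr1c12 were identical at 203 of 212 aligned bases, or 95.8%, while Akr1c18 aligned to them in part only, with identities of 56.4% and 62.5% over 188 and 144 bases. RefSeq gave a promoter for 5 of the 7 steroid synthesis genes, all but Star and Tspo.

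The windows of 250 bases before each start were searched on both strands for 8 motifs. These were the interferon-stimulated response element core, GAAA and GAAA with any 2 bases between them, which occurred in 2.98% of 32851 promoters, the gamma-activated site TTCNNNGAA in 7.02%, its form with 4 bases between TTC and GAA in 5.85%, the nuclear receptor site AGGTCA in 14%, the AP-1 site TGANTCA in 6.75%, the GATA letters AGATAA in 9.99%, the TATA letters TATAAA in 12.4% and the cyclic AMP site TGACGTCA in 1.55%. None of the 8 was found in the windows of Akr1c18, Akr1c12, Akr1c13, Stard3, Fdx1 or Fdxr. Of 2 listed starts of Cyp11a1, the one inside the gene had this wider form from 246 to 237 and AGGTCA from 28 to 23 bases before the start. The latter is shown with its surroundings, in capitals, at chr9:58014912-58014941 on the + strand, a stretch that GENCODE places in the first exon of a longer transcript.
Cyp11a1: gaggaaggggggAGGTCAccgctccatcag
A match is a string of letters, and the lack of one concerns these windows alone.

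Of 16 genes within 250 kilobases of Cyp11a1 8 were tested, of which 3 were called higher and 0 lower, and each had a smaller fold change than Cyp11a1. Stra6, a receptor for retinol-binding protein whose start lies 57.4 kilobases downstream, had normalized counts of 951, 930.5 and 1333 in WT and 1744, 1652 and 2352 in Irf1-/- libraries (log2 fold change 0.84, adjusted p = 0.00296). Its call was lost under 2 of 20 alternatives, with a fold change of 0.51 in the libraries without Y-linked transcripts. Ubl7 rose by 0.44 (adjusted p = 0.00175, lost under 1 of 20 alternatives) and Arid3b by 0.46 (adjusted p = 0.0226, lost under 7 of 20 alternatives). Sema7a, Pml, Clk3 and Stoml1 were not called, with log2 fold changes between 0.05 and 0.15. Ccdc33, on the other strand with its 3′ end 1.65 kilobases beyond Cyp11a1 and too low to test, had 1.25, 3.61 and 7.38 in WT and 10.7, 9.71 and 15.3 in Irf1-/- libraries without overlap, and Gm16130, 5.25 kilobases away, did not exceed 1.39. Gm17322, a noncoding gene on the same strand that shares 145 exon bases with Cyp11a1, had 34.9 to 72.4 in WT and 33.9 to 62.4 in Irf1-/- libraries (log2 fold change -0.07, adjusted p = 0.898). Shared windows of 50 bases made up 2.06% of those of Cyp11a1. Tspo shared 53 exon bases with Mcat on the other strand, and Star, Stard3, Fdx1 and Fdxr shared no window with another gene.

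**Figure D4:**
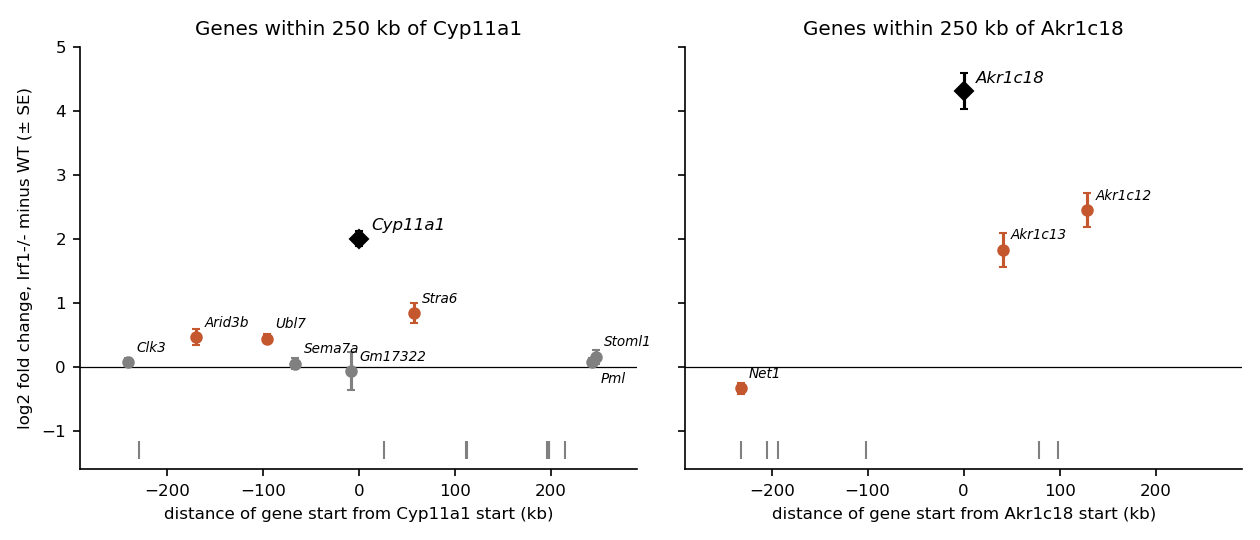
Log2 fold change (Irf1-/- minus WT, bars are SE) of tested genes against the distance of their start from that of Cyp11a1 or Akr1c18 in kilobases; red points are called by limma, grey points are not, black diamonds are the 2 steroid genes and grey ticks at the bottom are untested genes. Akr1c12 and Akr1c13 lie above 1.8, while no tested neighbour of Cyp11a1 lies above 0.84.

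The genes most like Cyp11a1 over the 6 libraries were sought by the root mean square difference of log2 values centred on the mean of each gene. They were Epb41l1 at 0.068, Ctla2b at 0.084, Anxa3 at 0.132, Capn5 at 0.147 and Il9 at 0.149. Il9 itself, the cytokine that defines these cells, had normalized counts of 852.4, 938.9 and 1272 in WT and 3201, 3283 and 3726 in Irf1-/- libraries, with a log2 fold change of 1.75 against 2.00 for Cyp11a1. For Akr1c18 the nearest genes were farther away, Tnni1 at 0.460, Lad1 at 0.576, Ntrk3 at 0.628, Gm16425 at 0.638 and Basp1 at 0.736. Capn5, Tnni1, Ntrk3 and Gm16425 passed the filter through the Irf1-/- libraries only and had few WT reads, between 0 and 9 for the latter 3 genes, so that their distances depend on the added 1. Akr1c12 came 17th in this order at 0.972 and Akr1c13 54th at 1.25. Cyp11a1 and Akr1c18 stood 1.20 apart, with Cyp11a1 48th in the order for Akr1c18. These distances describe 6 libraries in which the genotype sets most of the pattern.

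Cyp11a1 is also known from type 2 helper T cells. Among 11 tested genes of a list of type 2 cytokines, their receptors and the transcription factor Gata3, 4 were called higher and 1 lower. One of the calls, Il10, had 2, 3 and 5 reads in WT and 17, 27 and 40 reads in Irf1-/- libraries and passed the filter through the latter group only, so no fold is given. Il4ra rose by 0.77 on the log2 scale (adjusted p = 0.00569, lost under 3 of 20 alternatives, with a fold change of 0.37 in the libraries without Y-linked transcripts). Il24 rose by 1.04 (adjusted p = 0.0154, lost under 7 of 20 alternatives, with a fold change of 0.33 in the libraries without Y-linked transcripts). The lower call was Il4, at 32.4, 38.5 and 67.6 in WT and 11.9, 8.32 and 7.67 in Irf1-/- libraries, with 10, 6 and 12 reads in the latter. It passed the filter through the WT libraries only, so no fold is given for it either. Il5 and Il13 were not called.

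Markers of other cells that could carry steroid enzymes, which the negative selection for CD4+ T cells would largely remove, were counted in the same libraries. Of 9 markers of adrenal and gonadal steroid cells 6 were at 0 in all libraries, Nr5a1, Mc2r, Lhcgr, Cyp11b1, Hsd3b1 and Hsd3b6, and only Star, Insl3 and the single read of Cyp17a1 were seen. Of 10 markers of mast cells and basophils, cells that can express Cyp11a1, 3 were at 0 in all libraries, Ms4a2, Fcer1a and Prss34, and the others apart from Kit did not exceed 5.55. Their summed level, mostly Kit, was 13.5 to 22.5 in WT and 21.1 to 38.8 in Irf1-/- libraries. All 6 T cell markers were present, with sums of 14395 to 14945 in WT and 14198 to 14542 in Irf1-/- libraries, and Cd4 was at 3554 or more throughout. Cd3e, a chain of the T cell receptor complex, was called lower, at 1580 to 1666 in WT and 1241 to 1409 in Irf1-/- libraries (log2 fold change -0.30, adjusted p = 0.00535, lost under 2 of 20 alternatives).

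Markers of myeloid cells differed between libraries. All 6 were detected, none of the 4 tested was called, and their sum was 51.2 to 178 in WT and 41.5 to 1029 in Irf1-/- libraries, led by Lyz2 and Cd14 in Irf1-/- replicate 2. Beside these sums, Cyp11a1 and Akr1c18 stood at 352.3 and 350.9 in Irf1-/- replicate 2 and at 379.6 and 658.9 in Irf1-/- replicate 3, where the myeloid sum was 41.5. Replicate 3 was also the highest library for both genes in WT cells, and the part of myeloid cells in these values was not tested. The 5 B cell markers summed to 18.7 to 26.4 in WT and 21.7 to 37.4 in Irf1-/- libraries, with Pax5 at 0, the 2 CD8 markers to 32.4 to 41.2 and 20.3 to 30.7, and 3 of 4 NK cell markers were at 0.

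**Figure D5:**
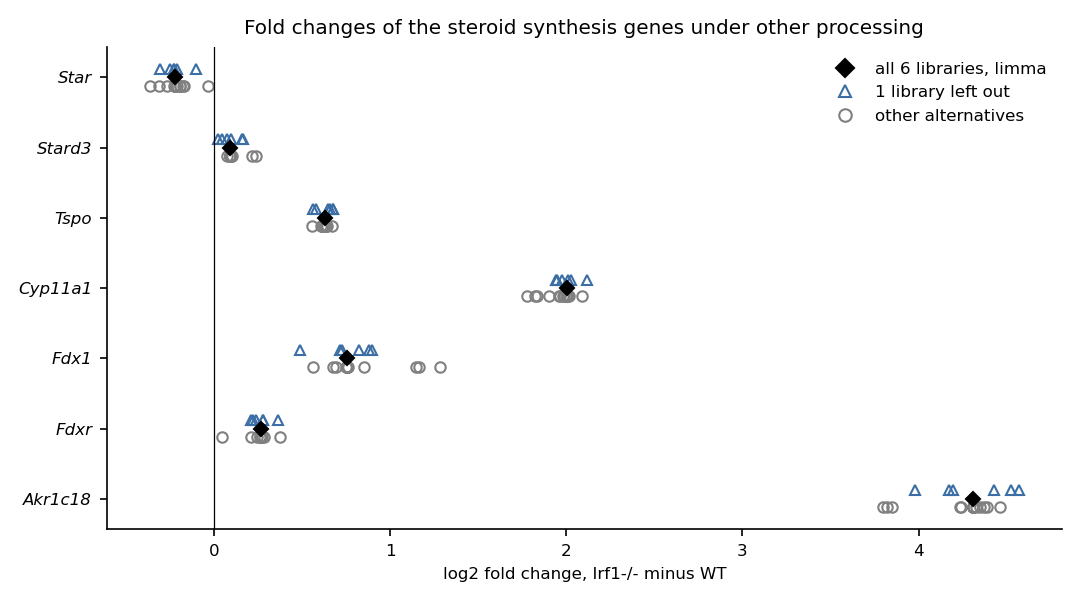
Log2 fold change (Irf1-/- minus WT) of each steroid synthesis gene with all 6 libraries (diamonds), with 1 library left out (triangles) and under the other alternatives (circles). Akr1c18 stays between 3.80 and 4.57 and Cyp11a1 between 1.78 and 2.12, while Fdx1 spreads from 0.49 to 1.29.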

How the data were processed

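From poly(A) mRNA libraries, the authors mapped single reads to GRCm38 with STAR 2.4.0b, assigned them to Ensembl genes with featureCounts and normalized the counts with DESeq2 1.12.3. The unit of the deposited values is a size-factor-normalized count, a signal that is not a raw count. Whether counting used strand is not given in the sources used here. All values were whole multiples of 1 step per library within a tolerance of 0.01, so reads were recovered for 100% of values.

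Log2 values after adding 1 were compared in R 4.3.3 with limma 3.58.1 (eBayes with a mean-variance trend, two-sided), for the 11379 genes whose mean reached 10. Every adjusted p is a Benjamini-Hochberg value from this fit. Alternatives on the recovered reads used edgeR 4.0.16 or DESeq2 1.42.0, and the rest used other pseudocounts (0.1, 10), filters, normalizations and variance models, each library left out, the Y-linked level as a covariate and the 4 libraries without Y-linked transcripts. On simulated data with 200 of 11379 genes changed, limma recovered 93% of 2-fold and 100% of 4-fold changes with 6 calls among unchanged genes. The simulated libraries were independent, with the same spread beyond counting error for every gene. They had no shift of replicate 3 and no difference in sex, so these rates may not hold for the real libraries.

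The members, the gene lists and the tests were chosen with earlier results of these data known. Genes were named if they were members, called genes of a list, key steps of the pathway, neighbours within 250 kilobases, or among the 5 most alike, and other genes that were not called were named after their values were seen. The labels and the methods differ on RNA extraction and read length. That the 3 samples of a genotype were independent rests on the study's text; otherwise p-values measure only the spread between samples. Symbols, coordinates and exon lengths came from GENCODE vM21 by Ensembl identifier (40254 of 41388 matched), and promoter sequences from RefSeq. Of 187 listed genes 3 were not matched. Intervals on counts of 0 cover counting error only.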

Additional observations from a re-analysis of the deposited data

How the results depend on the processing

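No steroid synthesis gene changed its direction under any alternative run, nor did any called gene named in the text. Outside the 7 steroid synthesis genes, alternatives were not run for named genes that were not called. Akr1c18 and Tspo moved by less than the spread between libraries in all 21. Over replicate 3 alone the log2 difference was 1.83 for Cyp11a1, -0.035 for Star, 1.15 for Fdx1 and 0.045 for Fdxr. With a term for the Y-linked level it was 1.82 for Cyp11a1 and 1.16 for Fdx1, and in the 4 libraries without Y-linked transcripts 1.78 for Cyp11a1, 1.29 for Fdx1 and 0.24 for Stard3. In those 4 libraries the lone WT library is assumed to vary like the others. Of genes whose calls were lost under any alternative, those whose log2 fold change moved by over 1.5 times in these 4 libraries were Tsc22d3 (0.51), Stra6 (0.51), Il4ra (0.37), Scarb1 (0.18), Soat2 (0.14), Il24 (0.33), Crem (0.42), Creb1 (-0.16) and Abcg1 (-0.55, still called there). Over replicate 3 alone, which gives no test, Vps13a (-0.29), Akr1b10 (-0.33), Cd3e (-0.17) and Net1 (-0.16) also moved by over 1.5 times. Star had no value at a mean of at least 50, which it did not reach.

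Counts of calls depended more on the libraries used. Leaving out 1 library gave 799 to 1372 genes higher and 826 to 1472 lower, against 1293 and 1406, and 9 to 15 steroid pathway genes higher and 5 to 11 lower, against 14 and 8. The lowest totals came without WT replicate 2, and those without WT replicate 1 (808 and 829) and Irf1-/- replicate 2 (820 and 895) were near them. The libraries without Y-linked transcripts gave 392 genes in each direction, and 5 and 3 pathway genes. Averaging replicates 1 and 2 gave 413 higher and 394 lower, and 5 and 4 pathway genes. Both use fewer samples. Without a mean-variance trend there were 807 genes lower, and 9 pathway genes higher and 5 lower. Replicates 1 and 2 alone gave 21 pathway genes higher and 15 lower, and the Y-linked covariate 9 and 10. The cause of these shifts was not tested.

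A replicate block raised the counts to 1893 higher and 2116 lower, with 19 and 13 pathway genes. Samples with the same number deviated together with correlations of 0.092, 0.269 and 0.321, not all above 0.1, so the numbers were not taken as pairs, although every sample correlated best with its own number. At this depth a gene with 0 reads could still have a normalized count of up to 4.16 in the smallest library.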
